A study of Homo sapiens with 9 samples.

Results

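The IFIT genes (interferon-induced proteins with tetratricopeptide repeats) were followed in 3 stable lines of T47D, an established luminal breast cancer cell line that expresses the estrogen receptor. All probes that the array annotation names IFIT1, IFIT2, IFIT3 or IFIT5 were taken, which gave 5 probes for 4 genes among the 58201 probes of the arrays. The lines were established with the pTARGET plasmid under G418 selection, and they differ in the insert. T47D-PA6 expresses full-length PTH-AS, a long noncoding RNA encoded downstream of the parathyroid hormone gene, T47D-PA5 expresses an incomplete PTH-AS that lacks part of its upstream end, and T47D-VC1 is the control with the empty vector. Each line is a single selected stable line, so a difference between inserts and a difference between selected lines cannot be told apart. Each line was measured on 3 single-color arrays, called replicates 1 to 3, and nothing in the sources used here states whether these came from separate cultures, so the p-values measure only the spread between these arrays. The level of PTH-AS itself was not analysed here.

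IFIT genes are among the genes most readily switched on by type I interferon. Interferon bound to its receptor activates the kinases JAK1 and TYK2, and a complex that contains STAT2 and IRF9 then binds the interferon-stimulated response element (ISRE) in the promoters of its target genes. IFIT1 binds RNA whose cap lacks ribose methylation, a mark of some viral RNAs, and blocks its translation. IFIT2 and IFIT3 assemble with IFIT1, and IFIT2 has also been linked to cell death. IFIT5 acts outside that complex and binds RNA ends that carry no cap. In tumor cells the same genes belong to interferon signatures that have been studied for resistance to DNA damage.

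The 4 genes lie side by side on chromosome 10, and their signal comes from probes of 60 bases. Probe positions are those of hg19, as the files give them. The first 30 bases of each probe are shown because the readings rest on them and because members of a gene family could share probe sequence.
IFIT1, probe A_23_P52266, chr10:91163438-91163497: actttgagaactctgtgagacaaggtcctt
IFIT2, probe A_23_P24004, chr10:91068397-91068456: agctgacccagcatcagccacactctgggt
IFIT2, probe A_24_P304071, chr10:91066613-91066672: tctaagagagaatggaatgtatgggaaaag
IFIT3, probe A_33_P3283611, chr10:91099762-91099821: ttcaggcataggcagtattttcctgtcagc
IFIT5, probe A_24_P30194, chr10:91179559-91179618: aatgtggcttctctaatgtagtttctttga

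Among the full 60-base probes of the family and of the neighboring gene IFIT1B, the longest run of bases that any 2 probes shared was 9. The 2 IFIT2 probes lie at different places in the transcript, starting at base 1074 for A_24_P304071 and at base 2858 for A_23_P24004, so they are separate readings of 1 gene and not replicates. All probes lie in the + direction, in which the genes are transcribed.

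Promoter sequences are shown because the members moved together and because the ISRE is the element through which interferon is known to act on these genes. RefSeq promoters (GRCh38.p14, + strand) were at hand for IFIT1, IFIT5 and both starts of IFIT3, and for the neighbor IFIT1B. The 250 bases before each start are given in lower case, with capitals for each match to the ISRE core, searched on both strands as GAAA, then NN, then GAAA.
IFIT1, chr10:89392373-89392622: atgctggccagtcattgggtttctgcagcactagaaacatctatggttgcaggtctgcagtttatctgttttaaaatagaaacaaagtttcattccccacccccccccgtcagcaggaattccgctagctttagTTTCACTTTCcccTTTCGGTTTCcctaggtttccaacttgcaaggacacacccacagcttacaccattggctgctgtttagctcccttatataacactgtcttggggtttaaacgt
IFIT3, upstream start, chr10:89327747-89327996: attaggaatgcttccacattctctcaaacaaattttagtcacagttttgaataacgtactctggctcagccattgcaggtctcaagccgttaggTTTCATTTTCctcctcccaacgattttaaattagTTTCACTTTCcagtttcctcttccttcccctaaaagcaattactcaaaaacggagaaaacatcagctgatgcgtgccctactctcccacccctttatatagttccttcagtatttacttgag
IFIT3, downstream start, chr10:89332279-89332528: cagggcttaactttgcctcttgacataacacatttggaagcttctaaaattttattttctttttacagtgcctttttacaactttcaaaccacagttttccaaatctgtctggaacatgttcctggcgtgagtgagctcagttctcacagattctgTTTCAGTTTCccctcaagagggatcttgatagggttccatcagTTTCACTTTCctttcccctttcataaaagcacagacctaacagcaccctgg
IFIT5, chr10:89414318-89414567: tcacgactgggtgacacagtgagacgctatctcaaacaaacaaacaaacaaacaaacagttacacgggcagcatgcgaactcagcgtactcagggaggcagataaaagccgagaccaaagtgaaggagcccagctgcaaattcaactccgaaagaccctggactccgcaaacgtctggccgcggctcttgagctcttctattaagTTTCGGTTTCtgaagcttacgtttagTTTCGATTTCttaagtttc
IFIT1B, chr10:89377806-89378055: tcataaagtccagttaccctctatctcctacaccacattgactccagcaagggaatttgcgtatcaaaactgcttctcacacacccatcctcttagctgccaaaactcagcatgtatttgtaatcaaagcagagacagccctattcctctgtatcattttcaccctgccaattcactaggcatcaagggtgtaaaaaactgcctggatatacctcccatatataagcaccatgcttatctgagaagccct

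Each of the 4 IFIT1, IFIT3 and IFIT5 promoters held 2 matches to the ISRE core, all on the minus strand. In IFIT1 the matches began 116 and 103 bases before the start, in IFIT3 156 and 122 bases before the upstream start and 94 and 51 bases before the downstream one, and in IFIT5 45 and 19 bases before it. The sequence TTTCACTTTC occurred in IFIT1 and at both IFIT3 starts, and the IFIT5 promoter had TTTCGGTTTC, which also occurred in IFIT1. IFIT1B had 0 matches. Of all 35116 reference promoters cut to the same length, 1061 (3.02%) held at least 1 match and 79 (0.225%) held 2 or more. The gamma-activated sequence, TTCNNNGAA, which reads the same on both strands, occurred in 2306 (6.57%) of all promoters and in 0 of the 4 IFIT promoters. Such a match describes the sequence only and does not show that a factor was bound.

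The values are normalized signals in the arbitrary units of the arrays. They were rounded to 3 significant digits, and a line's mean is the geometric mean of its 3 arrays. Signals of different probes were not compared, because brightness differs between probes. Whether a probe was well above background is the mark that the scanning software gave. From 44% to 48% of probes had that mark on each array, the lowest signal that carried it was 9.59 to 15.2, and no spot was saturated. A probe was tested when it had the mark on all arrays of at least 1 line, which held for 26171 probes and for 5 of 5 IFIT probes. The IFIT2 probe A_24_P304071 met this only in T47D-PA6. The arrays were hybridized on 3 slides. Slide 1, with replicate 1 of every line, was scanned in an earlier run than the others. Replicate 2 of T47D-VC1 and of T47D-PA5 shared slide 2. The remaining arrays were on slide 3, namely the later 2 of T47D-PA6 and replicate 3 of T47D-VC1 and of T47D-PA5. As a median over all tested probes, replicates 2 and 3 of a line differed by 0.09 to 0.11 on the log2 scale, whereas replicate 1 differed from the later arrays by 0.21 to 0.27.

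The luminal identity of the cells was checked with 9 markers, which were well above background on all 9 arrays, among them ESR1, GATA3 and KRT18. Their summed signal ranged from 492000 to 530000 over the control arrays, 518000 to 530000 in T47D-PA5 and 505000 to 523000 in T47D-PA6. KRT19 alone had means of 301000, 301000 and 293000, so that the sum mostly reads this gene. Its signal was 301000 on every T47D-VC1 and T47D-PA5 array. Quantile normalization gives the same value to the same rank on every array, so the steadiness of the sum is partly set by it and is no check of identity. PGR, the progesterone receptor, had means of 15100 in the control, 11600 in T47D-PA5 and 7200 in T47D-PA6 (log2 fold change of T47D-PA6 over T47D-VC1 -1.07, adjusted p = 0.0068), and its part in the results was not tested. Of 5 leukocyte markers with a probe, CD3E had no array on which it was well above background, and PTPRC was dim, with line means of 18 to 20.8. The 5 markers summed to 474 to 558 over the control arrays, 418 to 836 in T47D-PA5 and 580 to 732 in T47D-PA6. CD14, a monocyte marker, had means of 47.8 in the control, 115 in T47D-PA5 and 167 in T47D-PA6. In limma it was called only in T47D-PA6 over T47D-VC1 (log2 fold change 1.80, SE 0.29, adjusted p = 0.0075). It had 1.27 in T47D-PA5 over T47D-VC1 (adjusted p = 0.074) and 0.53 in T47D-PA6 over T47D-PA5 (adjusted p = 0.29). Its T47D-PA5 arrays (97 to 127) overlapped those of T47D-PA6 (101 to 218), and its part in the results was not tested. Of 7 fibroblast and endothelial markers, COL1A2, COL3A1, DCN and PECAM1 were likewise too dim throughout. The summed signal of the 7 ranged from 384 to 425, 358 to 395 and 280 to 310 in the 3 lines in the same order.

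All IFIT genes were lowest in the control line, intermediate in T47D-PA5 and highest in T47D-PA6. IFIT1 went from a mean of 539 in the control line to 4490 and 30200. IFIT3 went from 37.2 to 247 and 1860, and IFIT5 from 157 to 624 and 2100. IFIT2 went from 72.8 to 356 and 1750 at its brighter probe. In RNA from whole cultures, more RNA per cell and more cells with the RNA cannot be told apart.

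**Figure D1:**
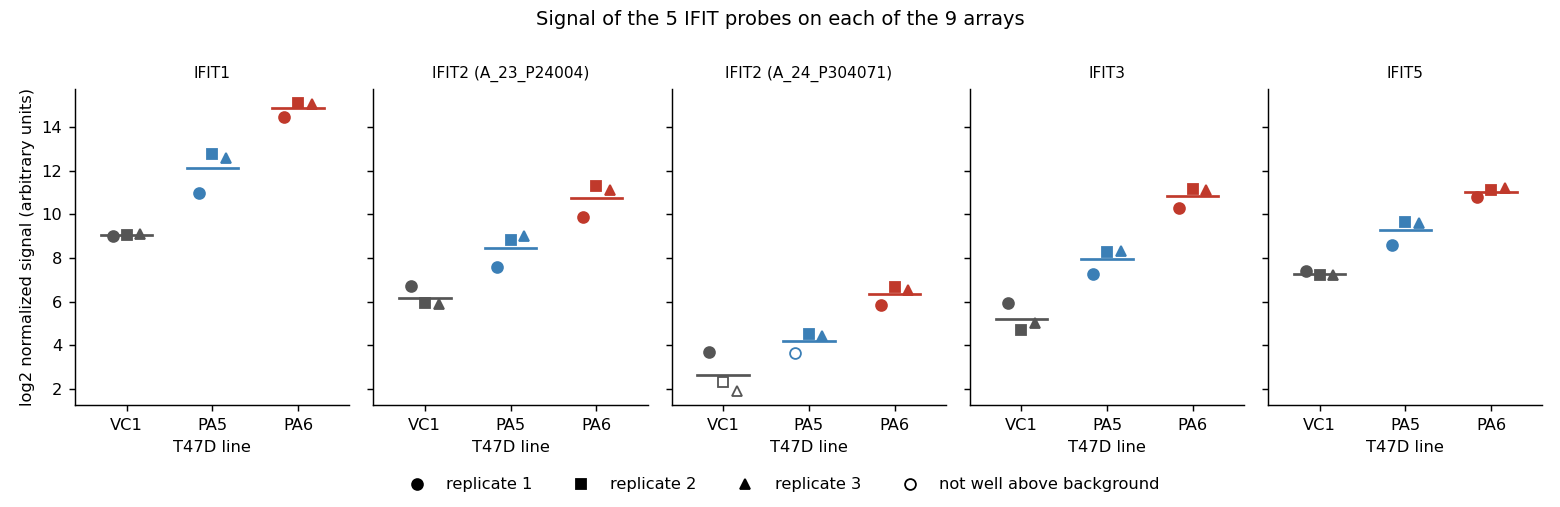
Log2 normalized signal (arbitrary units) of each IFIT probe on the 9 arrays, with 1 panel per probe, symbols for replicates 1 to 3, open symbols where the probe was not well above background and bars for the mean of the log2 values of each line. Every T47D-PA6 array lies above every T47D-VC1 and T47D-PA5 array in each panel, and only at IFIT2 probe A_24_P304071 do T47D-VC1 and T47D-PA5 overlap.

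IFIT1, which binds RNA with an unmethylated cap, gave signals of 518, 542 and 556 on the T47D-VC1 arrays. It gave 2050, 7060 and 6240 on those of T47D-PA5 and 22600, 35300 and 34600 on those of T47D-PA6. The 3 control arrays were nearly alike, with an SD of 0.05 on the log2 scale, and no ranges overlapped between lines. T47D-PA5 had the widest spread, an SD of 0.98, with replicate 1 far below the others.

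IFIT3, which stabilizes IFIT1 in a complex, gave 61.4, 26.0 and 32.3 on the arrays of T47D-VC1. The T47D-PA5 arrays gave 152, 309 and 319. In T47D-PA6 the signals were 1260, 2300 and 2200. The lines did not overlap, and replicate 1 was the highest array of the control line and the lowest of both other lines.

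IFIT2, the other partner in the complex, gave 105, 62.0 and 59.5 in T47D-VC1 at probe A_23_P24004. The same probe gave 196, 450 and 510 in T47D-PA5 and 944, 2530 and 2260 in T47D-PA6. Again the lines did not overlap, and replicate 1 stood nearest to the other lines in the control and lowest in T47D-PA5 and T47D-PA6. At the dimmer probe, A_24_P304071, the signals were 12.8, 4.94 and 3.75 in T47D-VC1, of which only replicate 1 was well above background. They were 12.4, 23.2 and 21.9 in T47D-PA5, with replicates 2 and 3 well above background, and 57.2, 101 and 93.7 in T47D-PA6, with all 3 above it. T47D-PA5 replicate 1 and T47D-VC1 replicate 1 therefore overlapped at this probe, while T47D-PA6 stayed above both lines. Because the control was measured above background on 1 of 3 arrays, the size of the change at this probe is less certain than at the others.

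IFIT5, which works without the other members, gave 171, 149 and 151 in T47D-VC1. Its signals were 389, 810 and 772 in T47D-PA5 and 1790, 2190 and 2370 in T47D-PA6. The lines did not overlap, and within T47D-VC1 and T47D-PA6 the arrays were close together, with SDs of 0.11 and 0.21 on the log2 scale.

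The first comparison asked how T47D cells with full-length PTH-AS differ from cells with the empty vector. In T47D-PA6 over T47D-VC1, 5 of 5 IFIT probes were higher in limma at an adjusted p under 0.05, where 4.43% of all tested probes were called higher. Among probes well above background on all 9 arrays, 4 of 4 IFIT probes were called higher, where 1034 of 23587 probes were. IFIT1 rose 56.1-fold (95% confidence interval 28.8 to 109, log2 fold change 5.81, SE 0.42, adjusted p = 0.00041). IFIT3 rose 49.9-fold (26.3 to 94.5, adjusted p = 0.00041). IFIT5 rose 13.4-fold (8.82 to 20.4, adjusted p = 0.00041). IFIT2 rose 24.1-fold at the brighter probe (11.5 to 50.6, adjusted p = 0.0012). The dimmer probe was also called (adjusted p = 0.0026). It had entered the test only through T47D-PA6, the line where it was highest, so its call adds no independent support. With 1 of 3 control arrays well above background, its size was not settled. It had a log2 fold change of 3.72, and of 1.18 when the background was corrected by normexp with an offset of 50. That correction also gave lower log2 values for the brighter IFIT2 probe (3.76 in place of 4.59) and for IFIT3 (4.32 in place of 5.64), with 5 of 5 probes still called. Ranked by fold change among the 26171 tested probes, IFIT1 was number 10 and IFIT3 number 11. The arrays of the lines did not overlap at 5 of 5 probes, and T47D-PA6 lay wholly above T47D-VC1 at 12.2% of all tested probes. For each probe the exact two-sided permutation test of 3 against 3 arrays gave p = 0.1, which is the smallest p this design allows.

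The second comparison asked whether the incomplete transcript was accompanied by the same changes. In T47D-PA5 over T47D-VC1, 3 of 5 IFIT probes were called higher, against 1.29% of all tested probes. IFIT1 rose 8.33-fold (4.28 to 16.2, adjusted p = 0.012). IFIT3 rose 6.63-fold (3.50 to 12.6, adjusted p = 0.017). IFIT5 rose 3.97-fold (2.62 to 6.04, adjusted p = 0.011). The IFIT2 probes did not pass the test, with a fold of 4.88 (2.32 to 10.3, adjusted p = 0.055) at the brighter probe. The dimmer probe, measured above background on 1 control array, had a log2 fold change of 1.58 (adjusted p = 0.15), and of 0.28 with normexp. With normexp the log2 value of IFIT3 was 1.68 in place of 2.73 and that of the brighter IFIT2 probe 1.66 in place of 2.29, and the same 3 probes were called. By the methods' own definition of upregulation, a ratio above 2 with no test, 5 of 5 probes qualified in T47D-PA5 and 5 of 5 in T47D-PA6, against 2.07% and 3.25% of all tested probes. T47D-PA5 lay wholly above T47D-VC1 at 4 of 5 probes and at 10.7% of all. The calls in T47D-PA5 rested on few arrays, and the count over all probes also changed with the arrays used. Without T47D-PA5 replicate 3 or without T47D-VC1 replicate 3, 0 of 5 probes were called, without T47D-VC1 replicate 2 only 1 was, and with replicates 2 and 3 of every line alone 5 of 5 were. Over all tested probes, 94 of 26251, 103 of 26249, 141 of 26647 and 2547 of 27462 were called higher in the same order, against 337 of 26171 with all arrays. Without T47D-PA5 replicate 3 and without T47D-VC1 replicate 3, the log2 fold changes were 2.82 and 3.09 at IFIT1 (3.06 with all arrays), 2.54 and 2.62 at IFIT3 (2.73) and 1.84 and 1.96 at IFIT5 (1.99), with adjusted p from 0.055 to 0.08. The methods' t-test called 0 of 5 after Benjamini-Hochberg adjustment and 4 of 5 at an unadjusted p under 0.05. Over all 26171 tested probes it called 38 and 3927 in either direction. Without a filter on dim probes limma called 1 of 5 higher, against 185 of 58201 probes.

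**Figure D2:**
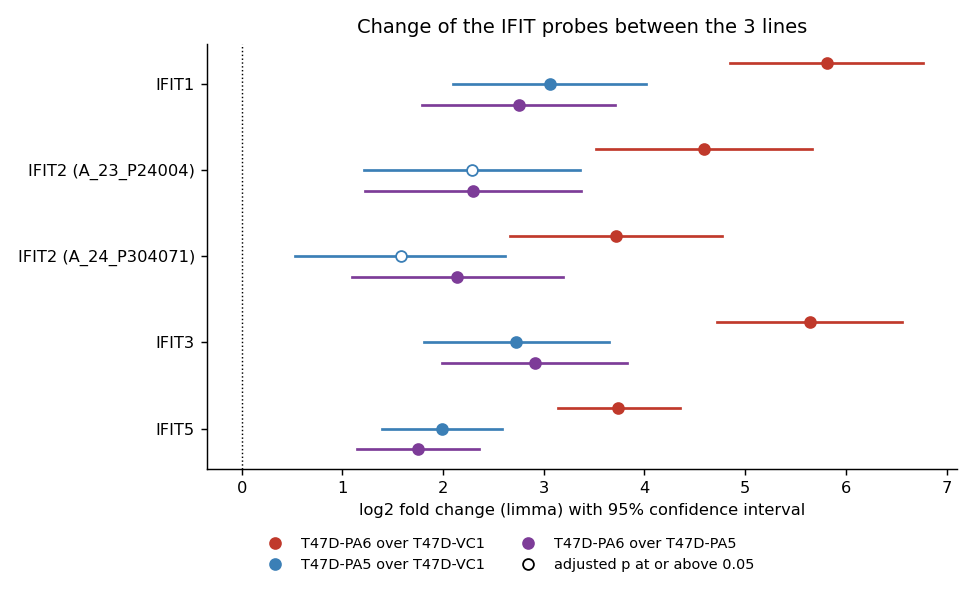
Log2 fold change of each IFIT probe between the lines, as fitted by limma, with bars for the 95% confidence interval and open points where the adjusted p was at or above 0.05. The interval lies above 0 for every probe in every comparison, and the open points are the IFIT2 probes in T47D-PA5 over T47D-VC1.

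The third comparison set the full-length against the incomplete transcript. In T47D-PA6 over T47D-PA5, 5 of 5 IFIT probes were called higher, against 3.46% of all tested probes. IFIT3 was 7.52-fold higher (3.97 to 14.3, adjusted p = 0.0055) and IFIT1 6.74-fold higher (3.46 to 13.1, adjusted p = 0.0069). IFIT5 was 3.37-fold higher (2.22 to 5.12, adjusted p = 0.0067). IFIT2 was 4.93-fold higher (2.35 to 10.4, adjusted p = 0.020) at its brighter probe. Its dimmer probe was above background on 2 of 3 T47D-PA5 arrays and was tested only through T47D-PA6. It had a log2 fold change of 2.14 (adjusted p = 0.023), and of 0.91 with normexp. All 5 probes exceeded a ratio of 2, as did 2.63% of all, and at all 5 the arrays of T47D-PA6 lay wholly above those of T47D-PA5, as at 13.6% of all. On the log2 scale the step from T47D-VC1 to T47D-PA5 and the step from T47D-PA5 to T47D-PA6 were 3.06 and 2.75 for IFIT1, 2.73 and 2.91 for IFIT3, and 1.99 and 1.75 for IFIT5. These steps share the T47D-PA5 arrays, and their difference was not tested. When either replicate 2 or replicate 3 of T47D-PA6 was left out, 3 of 5 probes were called in this comparison, the exceptions being both IFIT2 probes. Over all tested probes, 337 of 26220 and 312 of 26295 were then called higher, against 905 of 26171 with all arrays. The methods' t-test called 0 of 5 after adjustment and 5 of 5 at an unadjusted p under 0.05. Over all 26171 tested probes it called 965 and 6325 in either direction.

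Replicate 1 stood apart from the later arrays at these genes. The mean of replicates 2 and 3 minus replicate 1 was positive at all 5 probes in T47D-PA5, from 0.87 at the dimmer IFIT2 probe to 1.69 at IFIT1 on the log2 scale. In T47D-PA6 it was 0.35 at IFIT5 to 1.34 at the brighter IFIT2 probe. In T47D-VC1 it was near 0 at IFIT1 (0.08) and IFIT5 (-0.19) and negative at IFIT3 (-1.08) and at both IFIT2 probes (-0.79 and -1.57). Over all tested probes the median absolute difference of this kind was 0.22 to 0.26. The difference from T47D-VC1 was smaller on slide 1 than on the later slides at every probe. For T47D-PA6 minus T47D-VC1, slide 1 and slide 3 gave 5.45 and 5.97 at IFIT1, 4.36 and 6.12 at IFIT3, 3.38 and 3.91 at IFIT5, and 3.17 and 5.33 at the brighter IFIT2 probe. For T47D-PA5 minus T47D-VC1, slides 1, 2 and 3 gave 1.98, 3.70 and 3.49 at IFIT1, 1.31, 3.57 and 3.31 at IFIT3, and 1.18, 2.44 and 2.35 at IFIT5. At the dimmer IFIT2 probe they gave -0.05, 2.23 and 2.55, the single within-slide difference between these lines that was not positive. For T47D-PA6 minus T47D-PA5, slide 1 was above slide 3 at 5 of 5 probes, with 3.46 and 2.49 at IFIT1, 2.20 and 1.56 at IFIT5, and 3.05 and 2.82 at IFIT3. At the IFIT2 probes the slides were close, with 2.27 and 2.23 at the brighter and 2.21 and 2.15 at the dimmer one. The scan run moved with these values, and its part in them was not tested. When slide was fitted as a block, the counts of called IFIT probes were 5, 3 and 4 in the 3 comparisons. The call lost was that of the dimmer IFIT2 probe in T47D-PA6 over T47D-PA5 (adjusted p = 0.065). Over all 26171 tested probes, 1314, 534 and 899 were called higher with this block, against 1160, 337 and 905 without it.

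**Figure D3:**
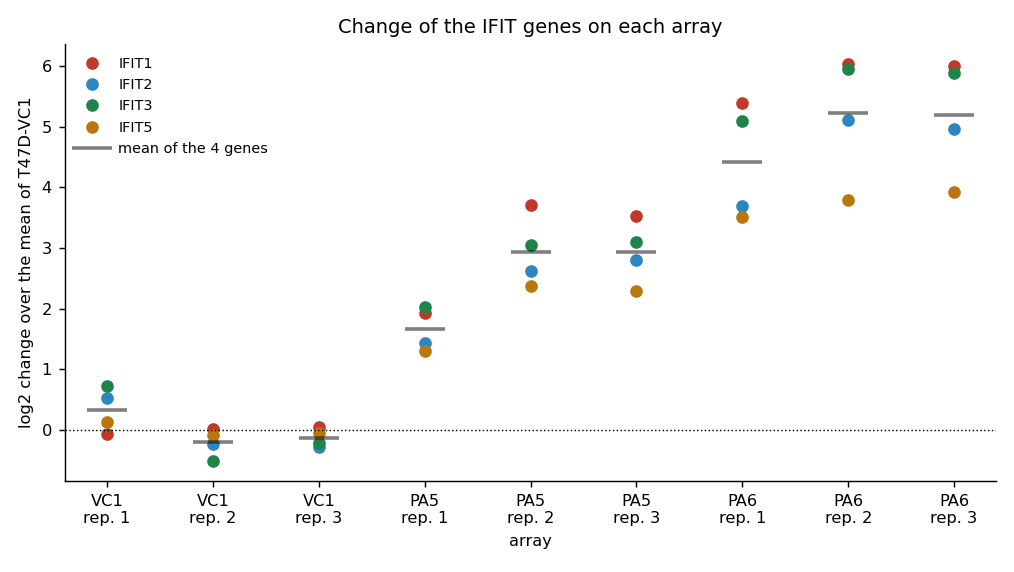
Log2 change of the 4 IFIT genes over their mean in T47D-VC1 on each of the 9 arrays (IFIT2 at its brighter probe), with grey bars for the mean of the 4 genes. The mean runs from -0.20 to 0.33 over the control arrays, 1.67 to 2.94 in T47D-PA5 and 4.42 to 5.23 in T47D-PA6, and replicate 1 is the lowest array of T47D-PA5 and of T47D-PA6.

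The changes of the members were also compared with one another. Taken within each array, so that differences between arrays cancel, IFIT1 rose more than IFIT5 by 1.88, 2.23 and 2.09 on the log2 scale in T47D-PA6, and by 0.62, 1.34 and 1.24 in T47D-PA5. IFIT3 rose more than IFIT5 by 1.58, 2.14 and 1.97 in T47D-PA6 and by 0.73, 0.69 and 0.80 in T47D-PA5. IFIT2 rose more than IFIT5 by 0.19, 1.31 and 1.04 in T47D-PA6, which overlapped the T47D-VC1 arrays at 0.40, -0.16 and -0.24. The difference between T47D-PA6 and T47D-VC1 was 2.07 for IFIT1 minus IFIT5 (exact two-sided permutation p = 0.1, n = 3 and 3, adjusted over 9 such differences 0.15). It was 1.90 for IFIT3 minus IFIT5 (exact permutation p = 0.1, adjusted 0.15). For IFIT2 minus IFIT5 it was 0.85 (exact permutation p = 0.2, adjusted 0.257). None of these could reach 0.05 with 3 arrays a line, for which 0.1 is the lowest p. With normexp, IFIT3 minus IFIT5 was 1.03 in T47D-PA6 over T47D-VC1 and 0.05 in T47D-PA5 over T47D-VC1, in place of 1.90 and 0.74, and IFIT2 minus IFIT5 was 0.47 and 0.03, in place of 0.85 and 0.30. IFIT1 minus IFIT5 was 2.37 and 1.27 with normexp, in place of 2.07 and 1.07. IFIT1 and IFIT3 followed each other most closely among pairs of the 4 genes, with a root mean square difference over the 9 arrays of 0.43, while IFIT1 and IFIT5 were furthest apart at 1.36. This order was not recomputed with normexp. There the log2 fold changes of T47D-PA6 and T47D-PA5 over T47D-VC1 were 5.66 and 2.90 at IFIT1 and 4.32 and 1.68 at IFIT3. The brighter IFIT2 probe had 3.76 and 1.66, nearer to IFIT3 than IFIT1 was.

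Genes that neighbor the family were read to see how far along the chromosome the change reached. In the window on chromosome 10 from 90566613 to 91679618, 39 other probes for 29 genes lie around the 5 IFIT probes, and 17 of them, for 13 genes, were bright enough to be tested. Of these 17, 0 were called higher and 1 was called lower in T47D-PA6 over T47D-VC1, where 4.43% of all tested probes were higher and 6.12% lower. In the other comparisons 0 were called, where 1.29% and 0.332% (T47D-PA5 over T47D-VC1) and 3.46% and 6.45% (T47D-PA6 over T47D-PA5) of all were higher and lower. At such shares few of 17 probes would be called, so these counts do not show how far the change reached. The one called was lnc-PANK1-2, a noncoding transcript, with a log2 fold change of -0.86 (SE 0.17, adjusted p = 0.017). The largest rise was that of ACTA2, smooth muscle actin, at 1.05 (SE 0.29, adjusted p = 0.051). The fold changes of the 17 probes ranged from -0.91 to 1.05 with a median of -0.18 in T47D-PA6 over T47D-VC1, against a median of -0.05 over all tested probes. LIPA, a lysosomal lipase and the nearest tested gene on the IFIT2 side, had 0.53 (SE 0.18, adjusted p = 0.11). SLC16A12, a monocarboxylate transporter beside IFIT5, had 0.03 (SE 0.22, adjusted p = 0.94) at its tested probe, whose mean was 72100 in the control. Its probes A_24_P13024 and A_33_P3408743 were well above background on no array, with control means of 2.62 and 2.53. The probes thus disagree on whether SLC16A12 was expressed. IFIT1B, which lies between IFIT3 and IFIT1, was too dim to be tested, well above background on 0 of 9 arrays, with mean signals of 3.02 in the control line, 3.25 in T47D-PA5 and 4.22 in T47D-PA6. CH25H, on the IFIT2 side, was also too dim to be tested, with means of 2.96, 3.78 and 9.16 in the same order. It was well above background on 2 T47D-PA6 arrays and on no others.

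**Figure D4:**
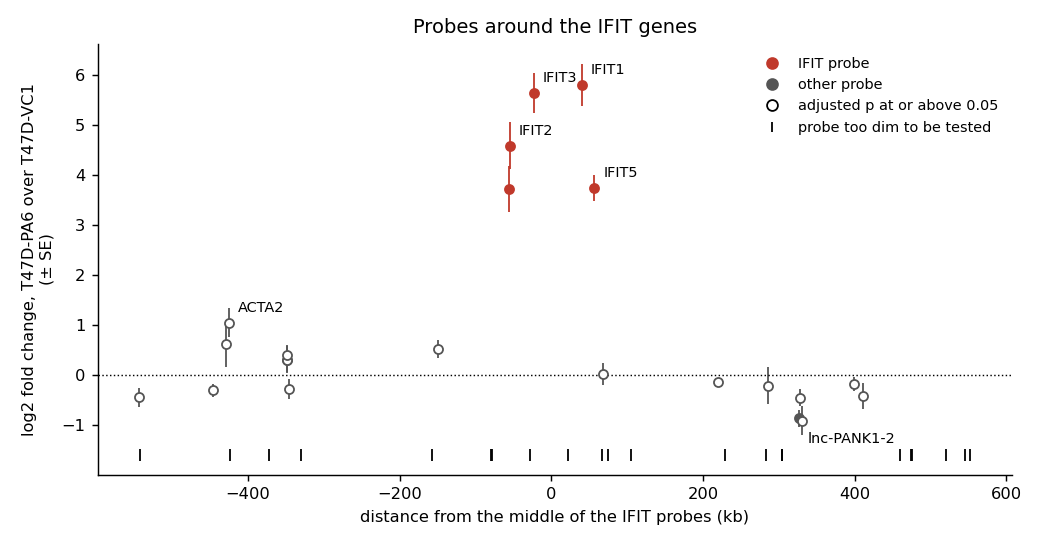
Log2 fold change of T47D-PA6 over T47D-VC1 (± SE) for every tested probe around the IFIT genes, against its distance in kb from the middle of the IFIT probes, with ticks at the foot for probes too dim to be tested. The 5 IFIT probes lie between 3.72 and 5.81, and the other 17 probes lie between -0.91 and 1.05.

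Genes that act in interferon production or carry the interferon signal to the IFIT promoters were listed together and changed only in part. Of 12 such genes, 4 were higher and 1 was lower in T47D-PA6 over T47D-VC1, 2 were higher and 0 lower in T47D-PA5 over T47D-VC1, and 4 were higher and 1 lower in T47D-PA6 over T47D-PA5. Over all tested probes, 4.43% were higher and 6.12% lower in the first of these comparisons, 1.29% and 0.332% in the second, and 3.46% and 6.45% in the third. The median log2 fold changes of the 12 genes were 0.02, 0.20 and 0.04, against -0.05, -0.03 and -0.01 over all tested probes. IRF9, the DNA-binding subunit of the interferon-activated complex, rose from 194 in the control to 768 in T47D-PA5 and 1730 in T47D-PA6 (log2 fold changes over the control 1.99 and 3.16, adjusted p = 0.0087 and 0.00052). IRF7, a factor that drives interferon genes, rose from 1420 to 4110 and 11400 (1.53 and 3.0, adjusted p = 0.033 and 0.00071). STAT2 rose in T47D-PA6 (1.23, adjusted p = 0.0075) and had 0.41 in T47D-PA5 (adjusted p = 0.36). IRF1, which binds similar promoter elements, rose in T47D-PA6 (1.48, adjusted p = 0.0084) and had 0.36 in T47D-PA5 (adjusted p = 0.54). IKBKE, a kinase upstream of interferon production, fell in T47D-PA6 (-1.12, adjusted p = 0.0032). The receptor chain IFNAR1 had 0.05 and the kinases JAK1 and TYK2 -0.42 and -0.18 in T47D-PA6 over T47D-VC1, and none of them passed the test.

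Genes for the partners of IFIT proteins and for enzymes of the RNA cap formed another list. Of its 10 genes, 0 were higher and 1 was lower in T47D-PA6 over T47D-VC1, where 4.43% of all tested probes were higher and 6.12% lower. In the other comparisons 0 were called, where 1.29% and 0.332% (T47D-PA5 over T47D-VC1) and 3.46% and 6.45% (T47D-PA6 over T47D-PA5) of all were higher and lower. The median log2 fold changes were -0.15, -0.09 and 0.06 in the 3 comparisons. The one called was EIF3C, a subunit of the translation initiation factor eIF3 that IFIT proteins can bind, at -0.39 (SE 0.10, adjusted p = 0.045), and this call was lost with the 75th percentile shift and with the slide as a block. CMTR1, which adds the cap methylation that IFIT1 reads, had 0.31 (SE 0.15, adjusted p = 0.22).

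Most other interferon-stimulated genes moved with the family. Of 30 listed genes 28 were tested, and 27 were higher in T47D-PA6 over T47D-VC1, with MX2 the exception (0.32, SE 0.20, adjusted p = 0.36). In T47D-PA5 over T47D-VC1 13 of 28 were higher, and in T47D-PA6 over T47D-PA5 24 were. Over all tested probes 4.43%, 1.29% and 3.46% were called higher in these comparisons. None of the listed genes was called lower in them. Some listed genes passed the filter on dim probes only through lines where they were high. For RSAD2, XAF1, SAMD9 and EPSTI1 this was T47D-PA6 alone, and for IFI44, OAS1 and CMPK2 T47D-PA5 and T47D-PA6. Their calls over T47D-VC1 therefore add no independent support. The same holds for the limma calls of RSAD2 and XAF1 in T47D-PA6 over T47D-PA5 (adjusted p = 0.010 and 0.035). The 30 genes were listed with earlier results of these data known, so the counts describe the list and are not independent evidence. The median log2 fold changes were 3.22, 1.69 and 1.79, and with the 5 genes that were too dim in every T47D-VC1 array set at their lower bound the first 2 were 3.22 and 1.36. The rises of IFIT1 (5.81) and IFIT3 (5.64) stood in the upper part of this list, near MX1 (5.89), a GTPase that blocks viruses, and below ISG15 (6.34), a ubiquitin-like protein, and IFI27 (7.09). IFIT5 (3.74) stood near IFITM3 (3.85), which blocks virus entry, and above OAS3 (3.12), a sensor of double-stranded RNA. Of 25 listed genes with a RefSeq promoter 18 (72%) had an ISRE core match in the 250 bases before a start, where 3.71% of all 27305 genes had one.

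**Figure D5:**
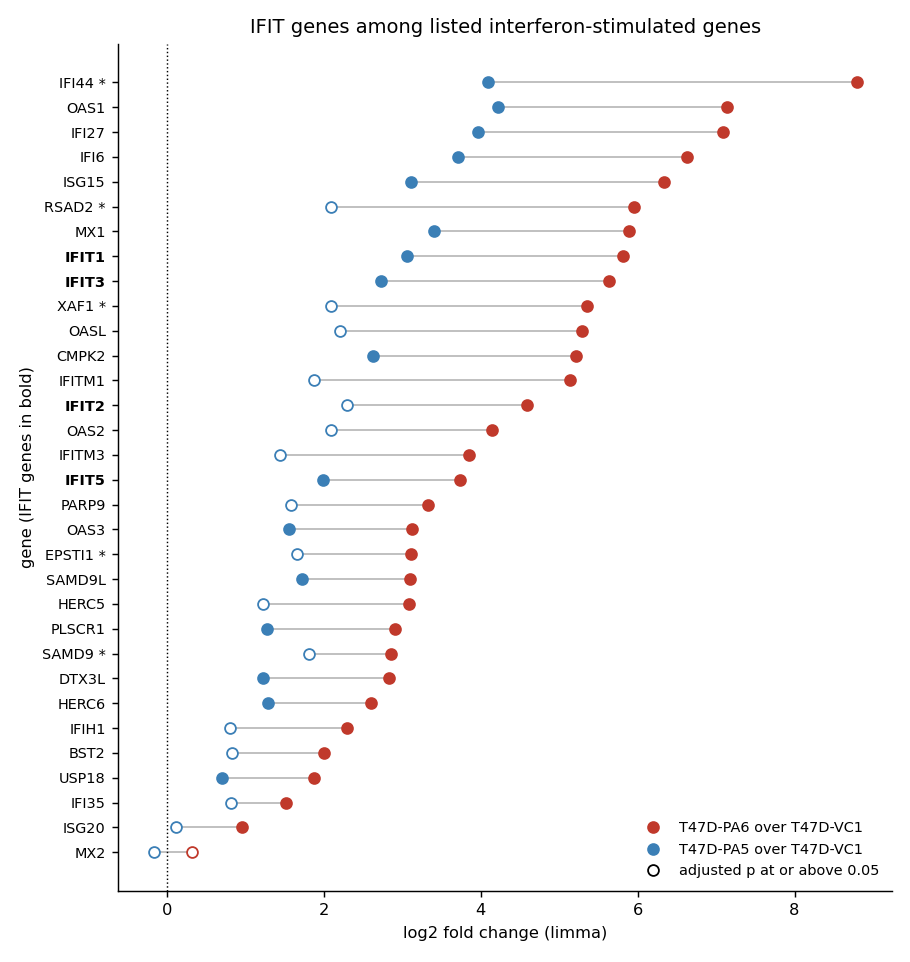
Log2 fold changes over T47D-VC1 of the listed interferon-stimulated genes and of the IFIT genes (bold, IFIT2 at its brighter probe) in T47D-PA6 and in T47D-PA5, fitted by limma, with open points where the adjusted p was at or above 0.05 and an asterisk where no T47D-VC1 array was well above background, so that the fitted size is no measure. Both comparisons use the same T47D-VC1 arrays, and every gene has its T47D-PA6 point to the right of its T47D-PA5 point.

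The genes with the pattern most like the family over the 9 arrays were sought among 18231 genes well above background on all of them. Likeness was measured as the root mean square difference from the mean change of the 4 IFIT genes on the log2 scale. OASL, a relative of the oligoadenylate synthetases, was nearest at 0.33, followed by DDX60 (0.38), a helicase, BATF2 (0.45), a transcription factor, IFITM1 (0.48), which blocks virus entry, and LAMP3 (0.51), a lysosomal membrane protein. OASL had mean signals of 94.6, 439 and 3700 in the control, T47D-PA5 and T47D-PA6, and DDX60 had 44.9, 215 and 983. Measured the same way, the members themselves lay at 0.30 (IFIT2), 0.46 (IFIT3), 0.62 (IFIT1) and 0.78 (IFIT5) from their own mean, to which each contributes. The 5 genes were picked as the nearest of 18231, so their distances cannot be weighed against those of the members.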

How the data were processed

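RNA of 3 T47D lines was measured on 9 single-color SurePrint G3 Human v3 arrays. The authors deposited the background-subtracted intensity of each spot from Feature Extraction (version 10.7.1.1 in the file headers, 9.5.1.1 in the submitters' processing notes) and a table of quantile-normalized intensities, which was used as an alternative. Here outlier spots (46 to 117 per array) were dropped, log2 values of a probe's spots were averaged, and the arrays were quantile-normalized. No pseudocount was added. Comparisons used limma 3.58.1 and the package data.table (1.17.8) under R 4.3.3, in 1 fit over 9 arrays (6 residual degrees of freedom), with Benjamini-Hochberg adjustment over the 26171 tested probes and a threshold of 0.05. The number of arrays limits the precision. Sequences were searched with Python 3.11.15.

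The members, gene lists and tests were chosen with earlier results of these data known. Genes named are all IFIT probes, the listed genes, those in the chromosome 10 window and the 5 most alike. For a gene with several probes the tested probe with the highest mean was read, and symbols were updated through RefSeq where they matched (34966 probes, the other 23235 keeping the file's name). Results for some genes are not reported here. The alternatives were a 75th percentile shift, normexp with an offset of 50, the authors' normalized values, other filters on dim probes, slide and replicate blocks, arrays left out, the later scan run alone, a single probe per gene, the methods' unpaired test, a variance trend and fits of the compared lines alone.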

Additional observations from a re-analysis of the deposited data

How the results depend on the processing

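Of 103 recomputed values of single IFIT probes in each comparison, 0 changed sign. In T47D-PA6 over T47D-VC1, 102 kept their side of the threshold, the exception being the dimmer IFIT2 probe in the methods' t-test (adjusted p = 0.073), and all 5 probes stayed called in limma with any 1 array left out. In T47D-PA5 over T47D-VC1, where 3 probes were called, 1 was called without a filter on dim probes, 0 in the methods' t-test and 5 with replicates 2 and 3 only. Leaving out 1 array gave 0 to 4, with 0 without T47D-PA5 replicate 3 or T47D-VC1 replicate 3 and 1 without T47D-VC1 replicate 2. Over all tested probes, the count called higher fell from 337 to 94, 103 and 141 without these arrays, and was 2547 with replicates 2 and 3 only. In T47D-PA6 over T47D-PA5, where 5 were called, 3 were called without the filter and 0 in the methods' t-test, and leaving out 1 array gave 3 to 5. The causes were not tested, although no filter raises the number of tests to 58201 and a left-out array leaves fewer samples.

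Without the filter, 1 of the upstream interferon genes was called in T47D-PA5 over T47D-VC1 and 1 in T47D-PA6 over T47D-PA5, and 2 and 13 of the other interferon-stimulated genes were. Of the partner and cap genes, 0 were called in T47D-PA6 over T47D-VC1 with the 75th percentile shift or the slide as a block. The within-array differences between members kept their sign in all alternatives, although IFIT3 minus IFIT5 fell to 0.05 in T47D-PA5 over T47D-VC1 with normexp, whose offset draws dim signals together. Over all probes, the count called was 2762, 424 and 2593 in the 3 comparisons and ranged from 644 to 9248, 38 to 4798 and 965 to 8967, the lowest from the methods' t-test and the highest from replicates 2 and 3 only.

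Deviations of same-numbered arrays from their line means correlated at 0.19 to 0.33 for number 1, 0.08 to 0.15 for number 2 and 0.11 to 0.23 for number 3, and those of other arrays at -0.30 to 0.25. All 9 same-numbered values were positive but not all were over 0.1, so the numbers were not taken as a pairing, and 4 of 9 arrays correlated best with their own number in both other lines. With the replicate number as a block, 5, 3 and 5 IFIT probes were called, as without it, and the counts over all probes rose to 3404, 595 and 3160. Brightness limits the dimmer IFIT2 probe, which was well above background on 1 T47D-VC1 array.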
